A study of Homo sapiens with 8 samples.

Results

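Transcripts of 9 genes of the plasminogen and tissue factor system were followed in LX-2 cells treated or not with an inhibitor of O-GlcNAc transferase (OGT), which places O-GlcNAc, a single sugar, on proteins inside the cell. The 9 genes were chosen by name: F3, TFPI, TFPI2, F2R, F2RL1, PLAT, PLAU, PLAUR and SERPINE2. All 9 were found among the 16796 genes of the count tables. LX-2 is an established human line derived from hepatic stellate cells in their activated state, a model of liver myofibroblasts, and each result below describes this single line in culture. The control group received the vehicle DMSO, and the OGTi group received the small-molecule OGT inhibitor OSMI-1 at 50 µM, both for 24 h. There were 4 libraries of polyadenylated RNA per group from biological replicates, and control and OGTi libraries of one replicate number form a pair.

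Tissue factor, the product of F3, is a membrane receptor that binds factor VII and starts coagulation, which ends in the formation of thrombin. Thrombin and other proteases cut the receptors PAR1 (F2R) and PAR2 (F2RL1), which then signal through G proteins, and activated stellate cells are known to respond to thrombin through PAR1. Plasminogen is converted to plasmin by tissue-type plasminogen activator (PLAT) or by urokinase (PLAU) bound to its receptor (PLAUR), and plasmin dissolves fibrin and helps to break down extracellular matrix in fibrotic liver. Serine protease inhibitors such as the product of SERPINE2 (protease nexin-1) hold these enzymes in check.

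Of the 9 genes, 7 changed between the groups and 2 did not pass the test. F3, F2R, TFPI and F2RL1 were lower in OGTi cells, and PLAT, TFPI2 and SERPINE2 were higher. PLAU and PLAUR were not called. The test was the Wald test of DESeq2 over all genes with the replicate number in the model, and a gene was called at a Benjamini-Hochberg adjusted p (q) of 0.05 or lower. The treatment touched much of the transcriptome, since 46.6% of the 14028 genes with a q were called, 22.7% as higher and 24.0% as lower. The share of called genes among the 9 (77.8%) was not tested against that share. The 9 genes, and the lists of related genes used below, were chosen with earlier results of these data known. The 4 control values and the 4 OGTi values did not overlap for 7 of the 9 genes, the same 7 that were called. Over all 14895 genes fitted, called or not, this was the case for 38.0%. The median log2 fold change was -0.42 over the 9 genes and 0.00 over all genes with a q.

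The libraries held 24166756 to 28201215 counts, and 12829 to 13180 genes per library had at least 10 counts. Of 9 stellate cell or myofibroblast markers, all 9 reached a mean of 100 normalized counts, and their summed level was 8929 to 10210 CPM (counts scaled to the library total) in control and 6715 to 7584 CPM in OGTi libraries. The count tables held only 3 of 8 hepatocyte, 5 of 6 endothelial, 2 of 4 cholangiocyte and 4 of 6 macrophage or leukocyte markers listed. Of those present, hepatocyte markers summed to at most 0.705 CPM, endothelial markers to at most 3.72 CPM and cholangiocyte markers to at most 5.09 CPM. The macrophage or leukocyte list rose from 93.7 to 148.5 CPM in control to 218.8 to 371.8 CPM in OGTi libraries, nearly all of it CD68, a lysosomal protein gene. The leukocyte gene PTPRC was at most 0.414 CPM in any library. DESeq2 called 8 of the 9 stellate markers lower. The fall of the stellate markers accompanied the changes described below, and its part in them was not tested. In RNA from whole cultures, fewer cells with a transcript and less of the transcript per cell cannot be told apart.

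**Figure D1:**
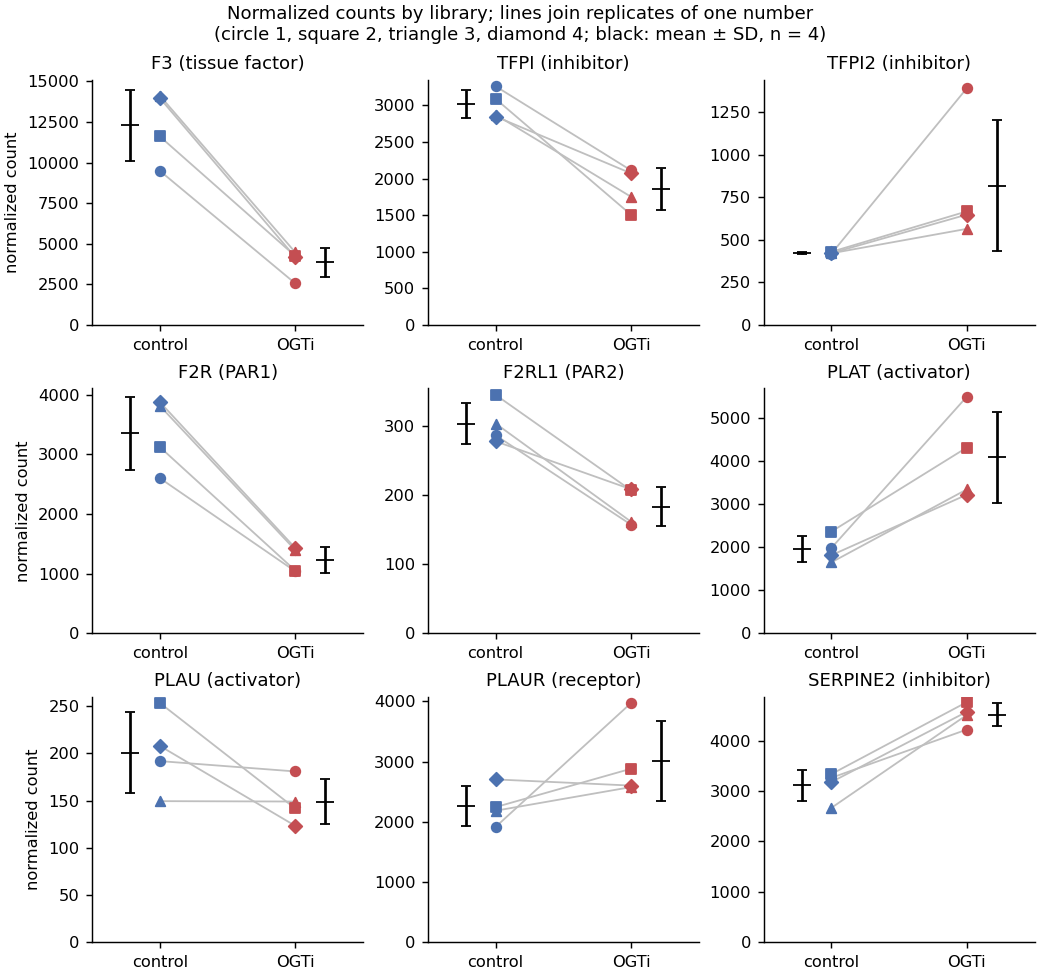
Normalized count (linear axis from 0) of each of the 9 genes in the 4 control libraries (blue) and the 4 OGTi libraries (red). Gray lines join libraries of one replicate number and black bars show the mean ± SD. F3 lay between 9492 and 14120 in control and between 2562 and 4475 in OGTi libraries, while the groups overlap for PLAU and PLAUR.

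F3, which encodes tissue factor, showed the largest fall of the 9 genes. It lies on chromosome 1 (GRCh38, 94529173 to 94541759, minus strand). In control replicates 1 to 4 its normalized counts were 9492, 11610, 14120 and 13970, and in OGTi replicates 1 to 4 they were 2562, 4250, 4475 and 4176. Every OGTi library lay far below the lowest control library, and OGTi replicate 1 was the lowest of all. The mean fell from 12300 ± 2196 to 3866 ± 878.2 (SD, n = 4 each). The fitted fall was 3.21-fold, with a DESeq2 log2 fold change of -1.68 ± 0.08 (SE, q = 3.15e-97). The 4 pairs ranged from -1.89 to -1.45 in log2 ratio. Ordered by log2 fold change from the lowest, F3 stood at place 431 of the 14895 genes fitted. Without OGTi replicate 1, an alternative chosen after seeing the data, its log2 fold change was -1.61 ± 0.08 (DESeq2 q = 2.35e-85).

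TFPI encodes tissue factor pathway inhibitor, which blocks the complex of tissue factor and factor VII. The gene lies on chromosome 2 (187464230 to 187565760, minus strand). Normalized counts of TFPI were 3262, 3090, 2874 and 2849 in control replicates 1 to 4 and 2113, 1506, 1752 and 2073 in OGTi replicates 1 to 4. The groups did not overlap, and the fall of TFPI was smaller than that of F3. The mean went from 3019 ± 194.8 to 1861 ± 286.6, and the fitted fall was 1.63-fold (DESeq2 log2 fold change of -0.71 ± 0.10, q = 1.18e-12). In 5 libraries the count of TFPI was fractional, meaning that RSEM shared some of its reads with other genes.

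The ratio of F3 to TFPI within a library does not depend on how libraries are scaled. Its log2 value was 1.54, 1.91, 2.3 and 2.29 in control replicates 1 to 4 and 0.28, 1.5, 1.35 and 1.01 in OGTi replicates 1 to 4. All 4 OGTi values lay below the lowest control value, and OGTi replicate 1 was lowest. The mean was 2.01 ± 0.36 in control and 1.03 ± 0.54 in OGTi cells, a difference of -0.98. The two-sided exact permutation p was 0.0286, the smallest that 4 against 4 libraries allow, and its adjusted value over the 5 ratios tested was 0.0286. With the pairs kept, a sign-flip exact test gave 0.125 for each of the 5 ratios, the smallest p that 4 pairs allow. These ratios are of counts not scaled by length, so only their change between the groups is compared.

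TFPI2, on chromosome 7 (93885396 to 93890753, minus strand), encodes a related inhibitor of the Kunitz type that acts on plasmin and other proteases of the matrix. It moved the opposite way to TFPI. Control replicates 1 to 4 held 419.9, 430.2, 421.7 and 422.3 normalized counts of TFPI2, and OGTi replicates 1 to 4 held 1392, 668.0, 565.3 and 649.1. The control libraries were nearly equal, every OGTi library was higher, and OGTi replicate 1 stood well above the other 3. The mean rose from 423.5 ± 4.59 to 818.5 ± 384.8, and the fitted rise was 1.80-fold (DESeq2 log2 fold change of 0.85 ± 0.29, q = 0.00963). Without OGTi replicate 1 the log2 fold change of TFPI2 was 0.56 ± 0.15 (DESeq2 q = 0.000521). Without both libraries of replicate 2 it was 0.92 and was not called (DESeq2 q = 0.0516).

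The promoters of F3 and TFPI2 are shown because the 2 genes moved in opposite directions and both hold the letters of the AP-1 motif TGANTCA. The sequences are the 250 bases before the gene start in the RefSeq promoter table (GRCh38.p14), written 5′ to 3′ on the gene's strand, with matches to TGANTCA on either strand in capitals. Windows of 7 of the 9 genes were searched, 9 in all. The table gave none for F2R, and PLAT was left out of the search. The F3 sequence covers chr1:94541760-94542009 and the TFPI2 sequence covers chr7:93890754-93891003, both on the minus strand.
F3: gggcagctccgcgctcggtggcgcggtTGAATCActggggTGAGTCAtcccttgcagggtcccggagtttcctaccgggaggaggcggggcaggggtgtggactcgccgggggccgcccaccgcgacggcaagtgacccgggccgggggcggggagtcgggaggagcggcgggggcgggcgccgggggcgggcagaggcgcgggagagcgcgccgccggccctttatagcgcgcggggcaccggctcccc
TFPI2: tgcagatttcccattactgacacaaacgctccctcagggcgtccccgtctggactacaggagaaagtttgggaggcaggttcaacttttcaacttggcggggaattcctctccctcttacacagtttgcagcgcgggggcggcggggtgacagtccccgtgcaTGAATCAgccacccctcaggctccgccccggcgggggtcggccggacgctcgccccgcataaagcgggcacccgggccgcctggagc
F3 held TGAATCA from position -223 and TGAGTCA from position -210, counted from the gene start, and TFPI2 held TGAATCA from position -87. Over the full windows of the table, which run from 250 bases before to 50 bases after the start, 7.71% of 35116 windows held this motif. A match of letters does not show that a factor binds there.

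F2R encodes PAR1, the main receptor of thrombin on stellate cells, and lies on chromosome 5 (76716126 to 76735770, plus strand). Control replicates 1 to 4 held 2601, 3122, 3812 and 3875 normalized counts of F2R, and OGTi replicates 1 to 4 held 1041, 1054, 1397 and 1431. The highest OGTi library was well below the lowest control library. The mean fell 2.72-fold, from 3352 ± 606.1 to 1231 ± 212.4 (DESeq2 log2 fold change of -1.44 ± 0.08, q = 1.80e-71). The 4 pairs were close to each other, with log2 ratios of -1.57 to -1.32. F2R stood at place 609 from the lowest log2 fold change among the 14895 genes fitted.

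F2RL1 encodes PAR2, which responds to trypsin-like proteases and to the complex of tissue factor and factor VII rather than to thrombin. It lies on the same chromosome (76818933 to 76835315, plus strand), and its start is 83163 bases from the end of F2R. Normalized counts of F2RL1 were 286.4, 344.8, 303.4 and 277.7 in control replicates 1 to 4 and 157.2, 206.9, 161.5 and 208.4 in OGTi replicates 1 to 4. The groups did not overlap. Its mean fell from 303.1 ± 29.8 to 183.5 ± 27.9, and the fitted fall was 1.66-fold (DESeq2 log2 fold change of -0.73 ± 0.16, q = 3.47e-05). The log2 ratio of F2R to F2RL1 within a library went from 3.45 ± 0.32 in control to 2.74 ± 0.31 in OGTi cells, a difference of -0.71 (two-sided exact permutation p = 0.0286, adjusted over the 5 ratios 0.0286). PAR1 transcripts therefore fell by more than PAR2 transcripts in all 4 pairs.

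The third receptor gene of this family, F2RL2 (PAR3), lies beside F2R on the opposite strand (76615482 to 76623413). It fell from 152.6 ± 47.3 to 95.7 ± 36.8 normalized counts (log2 fold change in DESeq2 of -0.70 ± 0.23, q = 0.00647). The groups overlapped for F2RL2, and the call was lost without replicate 2 (DESeq2 q = 0.0871) or replicate 3 (DESeq2 q = 0.0833). Other genes of this stretch of chromosome 5, named for their position, did not share a direction. CRHBP was lower (-1.56 ± 0.29, DESeq2 q = 4.80e-07) and so was ZBED3 (-0.78 ± 0.21, DESeq2 q = 0.0007), while AGGF1 was higher (0.31 ± 0.10, DESeq2 q = 0.00547).

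PLAT, which encodes tissue-type plasminogen activator, showed the largest rise of the 9 genes. It lies on chromosome 8 (42174718 to 42207709, minus strand). Control replicates 1 to 4 held 1990, 2370, 1655 and 1820 normalized counts of PLAT, and OGTi replicates 1 to 4 held 5507, 4324, 3351 and 3228. Every OGTi library was above every control library, and OGTi replicate 1 was again the extreme. The mean rose from 1959 ± 306.5 to 4102 ± 1057, and the fitted rise was 2.06-fold (DESeq2 log2 fold change of 1.05 ± 0.10, q = 1.14e-23). The log2 ratios of the 4 pairs ranged from 0.83 to 1.47. Counted from the highest log2 fold change, PLAT stood at place 1023 of the 14895 genes fitted. Without OGTi replicate 1 its log2 fold change was 0.91 ± 0.09 (DESeq2 q = 9.67e-23).

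PLAU encodes urokinase, the other plasminogen activator, and lies on chromosome 10 (73909177 to 73917496, plus strand). Its normalized counts were 191.9, 253.6, 149.4 and 208.0 in control replicates 1 to 4 and 180.9, 141.6, 149.0 and 123.2 in OGTi replicates 1 to 4. The values overlapped between the groups, and replicates 1 and 3 barely differed within their pair. The mean was 200.7 ± 43.1 in control and 148.7 ± 24.1 in OGTi cells (DESeq2 log2 fold change of -0.42 ± 0.20, q = 0.0777), and its 95% interval was -0.82 to -0.02. edgeR with the same block, which called 47.5% of all genes, called PLAU lower (q = 0.0358), and so did DESeq2 without replicate 3 (-0.56, q = 0.0485). It was not called without replicate 2 (-0.28, DESeq2 q = 0.413) or replicate 4 (-0.31, DESeq2 q = 0.358), nor with no replicate block (q = 0.0554 in DESeq2 and 0.0666 in edgeR).

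Within a library the 2 activators moved apart. The log2 ratio of PLAU to PLAT was -3.37, -3.22, -3.46 and -3.12 in control replicates 1 to 4 and -4.92, -4.92, -4.48 and -4.70 in OGTi replicates 1 to 4. The groups were separated by more than the spread within either. The mean difference was -1.46 (two-sided exact permutation p = 0.0286, adjusted over the 5 ratios 0.0286). The ratio was lower in 4 of 4 pairs.

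PLAUR, on chromosome 19 (43646095 to 43670547, minus strand), encodes the membrane receptor that holds urokinase at the cell surface. Normalized counts of PLAUR were 1913, 2242, 2182 and 2702 in control replicates 1 to 4 and 3973, 2880, 2575 and 2600 in OGTi replicates 1 to 4. OGTi replicate 1 was the highest and the other 3 OGTi libraries lay close to the controls, with OGTi replicates 3 and 4 below control replicate 4. The mean was 2260 ± 327.6 in control and 3007 ± 658.9 in OGTi cells (DESeq2 log2 fold change of 0.40 ± 0.24, q = 0.174), and its 95% interval was -0.08 to 0.87. The value was higher in 3 of 4 pairs. PLAUR was called higher in DESeq2 with no replicate block (0.41, q = 0.0122, with 43.2% of all genes called) and without replicate 4 (0.55, DESeq2 q = 0.000464). In edgeR it was called higher with the block (q = 0.00697) and with no block (q = 0.0251). Without OGTi replicate 1 its log2 fold change was 0.18 (DESeq2 q = 0.143).

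The PLAUR promoter is shown beside those of F3 and TFPI2 because it holds the same AP-1 letters as F3. It covers chr19:43670170-43670419 on the minus strand, with TGANTCA matches in capitals.
PLAUR: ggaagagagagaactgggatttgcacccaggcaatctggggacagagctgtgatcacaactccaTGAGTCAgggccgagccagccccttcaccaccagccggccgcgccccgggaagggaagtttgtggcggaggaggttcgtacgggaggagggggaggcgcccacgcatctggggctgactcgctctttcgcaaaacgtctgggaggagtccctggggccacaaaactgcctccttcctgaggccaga
The match, TGAGTCA, starts at position -186. Thus 3 of the 7 genes searched held TGANTCA in a window, and among these F3 was lower, TFPI2 was higher and PLAUR was not called. The motif GGAATG, which TEAD factors bind, was found among the windows of these genes only as CATTCC in that of F2RL1 (position -194). It was in 14% of all windows.

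SERPINE2 encodes protease nexin-1, a cell-surface inhibitor of thrombin, urokinase and tissue-type plasminogen activator, and lies on chromosome 2 (223975045 to 224039318, minus strand). Control replicates 1 to 4 held 3264, 3338, 2667 and 3180 normalized counts of SERPINE2, and OGTi replicates 1 to 4 held 4223, 4769, 4514 and 4577. The OGTi libraries were all higher and lay within a narrow range. The mean rose from 3112 ± 303.5 to 4521 ± 226.3, and the fitted rise was 1.46-fold (DESeq2 log2 fold change of 0.54 ± 0.08, q = 1.27e-10). The log2 ratio of PLAU to SERPINE2 within a library went from -3.97 ± 0.19 in control to -4.93 ± 0.29 in OGTi cells, a difference of -0.96 (two-sided exact permutation p = 0.0286, adjusted over the 5 ratios 0.0286). Urokinase transcripts thus declined against those of its inhibitor in all 4 pairs.

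One of the 2 promoter windows of SERPINE2 is shown for its repeated CCAAT box, a common promoter motif. The 250 bases cover chr2:224031479-224031728 on the minus strand, with CCAAT and its reverse complement ATTGG in capitals.
SERPINE2: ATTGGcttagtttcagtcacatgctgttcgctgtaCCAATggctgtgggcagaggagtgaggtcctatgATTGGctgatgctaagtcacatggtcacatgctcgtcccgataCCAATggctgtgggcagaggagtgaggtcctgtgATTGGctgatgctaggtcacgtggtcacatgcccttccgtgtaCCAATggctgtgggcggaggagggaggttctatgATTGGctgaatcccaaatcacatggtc
The window held 7 matches, 3 of them CCAAT and 4 of them ATTGG, and 34.6% of all windows held at least 1. The other window of SERPINE2 held no match to these letters. The counts are per gene and do not show which start the cells used.

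**Figure D2:**
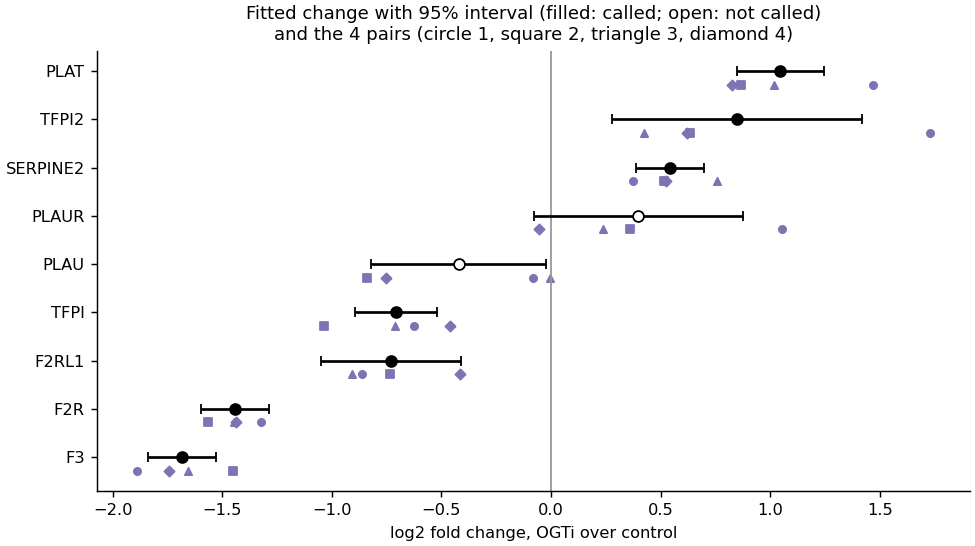
Log2 fold change of OGTi over control from the DESeq2 fit with its 95% interval (black, filled where called and open where not), and the log2 ratio of each of the 4 pairs (purple marks below). The values run from -1.68 for F3 to 1.05 for PLAT, and replicate 1 (circles) lies farthest right for PLAT, TFPI2 and PLAUR.

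The third ratio that involves urokinase set its receptor against it. The log2 ratio of PLAUR to PLAU was 3.50 ± 0.33 in control and 4.32 ± 0.15 in OGTi cells, a difference of 0.82 (two-sided exact permutation p = 0.0286, adjusted over the 5 ratios 0.0286). The ratio was higher in 4 of 4 pairs, for which the sign-flip exact test gave p = 0.125, and neither gene passed the test over all genes. The 3 ratios with PLAU share its counts and are not independent of each other.

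**Figure D3:**
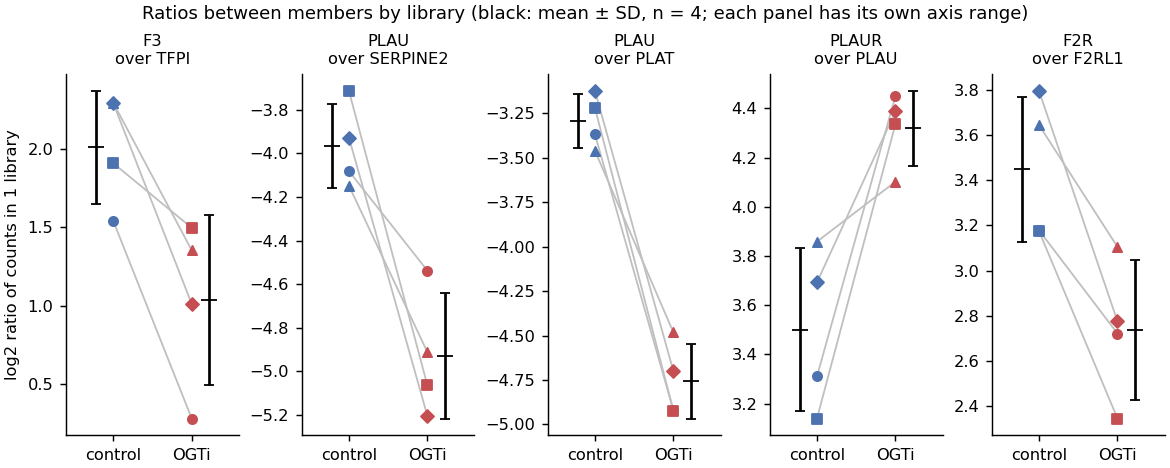
Log2 ratio of the counts of 2 genes within a library, for the 5 ratios, in control (blue) and OGTi (red) libraries. Gray lines join pairs and black bars show the mean ± SD. The groups do not overlap in any panel, and the largest difference is -1.46 for PLAU over PLAT.

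Levels of different genes were compared only after division by transcript length, as TPM (length-scaled levels with the same sum in each library) computed from the counts and the length of the canonical transcript. In control cells F3 was the most abundant of the 9 genes at 534.9 ± 97.0 TPM, above the ranges of all others. PLAUR (165.0 ± 23.1 TPM) and SERPINE2 (139.6 ± 13.1 TPM) followed and overlapped. F2R (89.9 ± 16.4 TPM), TFPI (78.2 ± 5.01 TPM) and PLAT (64.0 ± 10.4 TPM) came next, and neighbours in this order overlapped. TFPI2 was at 19.2 ± 0.455 TPM, and F2RL1 (10.6 ± 1.18 TPM) and PLAU (8.56 ± 1.87 TPM) were lowest and overlapped.

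In OGTi cells F3 no longer stood apart. PLAUR (226.8 ± 48.8 TPM), SERPINE2 (209.7 ± 10.2 TPM), F3 (173.8 ± 39.9 TPM) and PLAT (138.1 ± 34.2 TPM) formed a group in which each neighbour overlapped the next. TFPI (49.9 ± 8.67 TPM), TFPI2 (38.3 ± 17.9 TPM) and F2R (34.2 ± 6.63 TPM) formed a group of the same kind below them. F2RL1 (6.63 ± 1.04 TPM) and PLAU (6.55 ± 1.02 TPM) were again the lowest. With the summed length of all exons in place of the canonical transcript, F3 came first in both groups and F2R came second in control cells, so the order depends on the length used. In OGTi cells PLAUR, PLAT and SERPINE2 followed F3 on that scale.

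**Figure D4:**
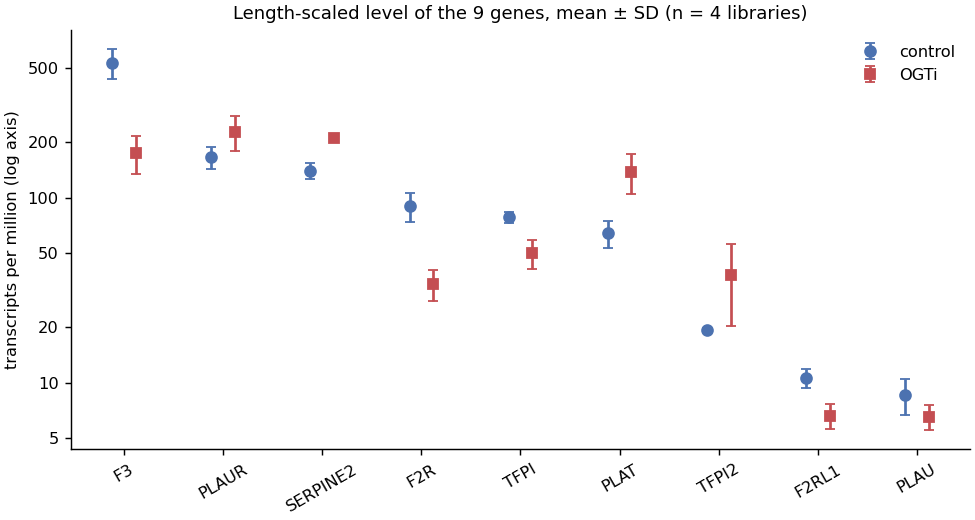
TPM (log axis) of the 9 genes in control (blue circles) and OGTi (red squares) cells, mean ± SD over 4 libraries, ordered by the control mean. F3 is highest in control cells at 534.9 TPM and lies among PLAUR, SERPINE2 and PLAT in OGTi cells at 173.8 TPM.

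The other genes of the plasminogen system were taken from a list of 18 inhibitors, receptors and binding partners, all of them in the tables. Of these, 14 had a q, of which 4 were called higher, 5 were called lower and 5 were not called, with a median log2 fold change of -0.11. The called share was 64.3%, beside 46.6% of all genes with a q, and this difference was not tested. PLG, the plasminogen gene itself, SERPINF2, SERPINA5 and CPB2 had under 10 counts in every library. The largest fall among the named genes was that of SERPINB2, which encodes plasminogen activator inhibitor 2. Its normalized counts were 2168, 2281, 2943 and 3063 in control replicates 1 to 4 and 1021, 1173, 703.7 and 746.3 in OGTi replicates 1 to 4. The groups were far apart, and the fitted fall was 2.90-fold (DESeq2 log2 fold change of -1.54 ± 0.29, q = 8.79e-07).

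SERPINI1, which encodes the activator inhibitor neuroserpin and was named after its values were seen, rose from 6.60 ± 3.64 to 79.4 ± 22.4 normalized counts (log2 fold change in DESeq2 of 3.62 ± 0.50, q = 3.17e-12). The inhibitor genes of the list thus did not share a direction.

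Genes for proteins that bind plasminogen at the cell surface moved both ways. S100A10, which encodes the partner of annexin A2 in plasminogen binding, fell from 4897 ± 501.0 to 3124 ± 192.6 normalized counts (log2 fold change in DESeq2 of -0.65 ± 0.07, q = 9.34e-18). The annexin A2 gene ANXA2 was called lower too (-0.35 ± 0.07, DESeq2 q = 6.62e-06), with overlapping groups. ENO1, an enolase that also serves as a plasminogen receptor, fell as well (-0.41 ± 0.07, DESeq2 q = 1.61e-07). PLGRKT, a membrane receptor for plasminogen, rose (0.76 ± 0.21, DESeq2 q = 0.001) with overlapping groups. IGF2R, the mannose 6-phosphate receptor, rose (0.67 ± 0.08, DESeq2 q = 1.76e-17), and so did the clade B inhibitor gene SERPINB8 (0.52 ± 0.09, DESeq2 q = 2.49e-08). LRP1, the endocytic receptor that clears complexes of activators and inhibitors, was not called (-0.13 ± 0.08, DESeq2 q = 0.184).

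Of 28 other coagulation genes listed, 27 were in the count tables, 19 were fitted and 18 had a q. Of these, 4 were called higher and 4 lower and 10 were not called, with a median log2 fold change of 0.02. The called share was 44.4%, beside 46.6% of all genes with a q. The genes for prothrombin (F2), factor VII (F7), protein C (PROC) and antithrombin (SERPINC1) were among the 10 with under 10 counts in every library. F8, which encodes the cofactor factor VIII, had 54.6, 44.2, 36.8 and 79.1 normalized counts in control replicates 1 to 4 and 127.9, 226.0, 163.4 and 149.3 in OGTi replicates 1 to 4. All OGTi libraries were higher, at a low level (DESeq2 log2 fold change of 1.65 ± 0.28, q = 1.70e-08).

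GAS6, a vitamin K-dependent ligand of TAM receptors, had 2403, 2844, 2849 and 3203 normalized counts in control replicates 1 to 4 and 1320, 1549, 1739 and 1492 in OGTi replicates 1 to 4. It fell with no overlap (DESeq2 log2 fold change of -0.89 ± 0.09, q = 1.37e-23). GGCX, the carboxylase that vitamin K-dependent proteins need, fell (-0.41 ± 0.08, DESeq2 q = 3.26e-06). The disulfide isomerase gene P4HB rose with overlapping groups (0.23 ± 0.06, DESeq2 q = 0.00104), and it was not called in edgeR with no replicate block (q = 0.0573). VKORC1, which regenerates vitamin K, was called higher (0.23 ± 0.09, DESeq2 q = 0.031), with overlapping groups and a rise in 3 of 4 pairs. Its call was lost without replicate 2, 3 or 4 (DESeq2 q of 0.0778 to 0.274) and with no replicate block (DESeq2 q = 0.0506). The count of called coagulation genes fell from 8 to 4 without replicate 2 and to 5 without replicate 3. The THBD (DESeq2 q = 0.0458) and F10 (DESeq2 q = 0.0497) calls, named after their values were seen, lay just inside the threshold, and the groups overlapped for F10.

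Downstream of the receptors, 16 G protein signalling genes were listed and 15 had a q. Among them 2 were called higher, 7 were called lower and 6 were not called, with a median log2 fold change of -0.17. The called share was 60.0%, beside 46.6% of all genes with a q, and this difference was not tested. ARRB1, which encodes the beta-arrestin that shuts off and internalizes receptors, fell from 1335 ± 92.2 to 722.8 ± 142.5 normalized counts (log2 fold change in DESeq2 of -0.90 ± 0.10, q = 3.03e-17). ARRB2, the other beta-arrestin gene, was called higher (0.27 ± 0.08, DESeq2 q = 0.00317) with overlapping groups. Its call was lost without replicate 3 (DESeq2 q = 0.0696) or replicate 4 (DESeq2 q = 0.0527). The arrestin genes thus moved apart.

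Among the listed genes linked to RhoA, the small GTPase of the contractile cytoskeleton, some fell and others were not called. RHOA itself fell from 29160 ± 3614 to 19530 ± 1538 normalized counts (log2 fold change in DESeq2 of -0.57 ± 0.07, q = 3.42e-17). ROCK2, a kinase that RhoA activates, fell (-0.49 ± 0.09, DESeq2 q = 2.11e-07), and so did ARHGEF12, an exchange factor that links G proteins to RhoA (-0.33 ± 0.08, DESeq2 q = 6.62e-05). The groups overlapped for both ROCK2 and ARHGEF12. ROCK1 (-0.15 ± 0.08, DESeq2 q = 0.148), the exchange factor genes ARHGEF1 (-0.17 ± 0.08, DESeq2 q = 0.0818) and ARHGEF11 (0.17 ± 0.09, DESeq2 q = 0.0986) and the G protein gene GNA12 (-0.11 ± 0.08, DESeq2 q = 0.237) were not called. Of the other G protein genes listed, GNA13 (-0.21 ± 0.08, DESeq2 q = 0.0192) and GNAQ (-0.27 ± 0.08, DESeq2 q = 0.00415) were called lower, with overlapping groups. GNA11 (DESeq2 q = 0.416) and GNAI2 (DESeq2 q = 0.3945) were not called. PLCB4, a phospholipase C of the Gq arm, fell (-0.63 ± 0.09, DESeq2 q = 1.91e-10), while PLCB3, another phospholipase C gene of the list, rose (0.23 ± 0.07, DESeq2 q = 0.00152).

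**Figure D5:**
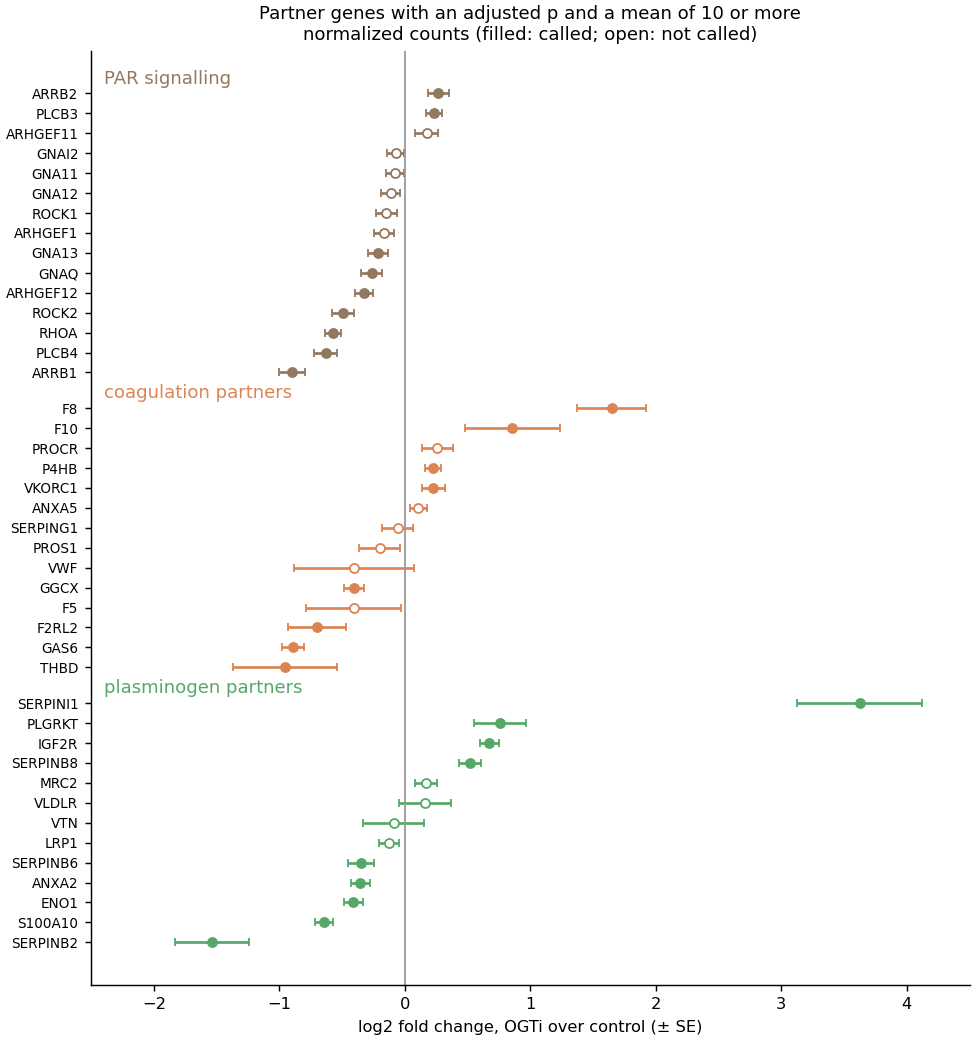
Log2 fold change of OGTi over control ± SE from DESeq2 for 42 genes of the 3 partner lists (filled where called, open where not). SERPINB2 at -1.54 is the largest fall and SERPINI1 at 3.62 the largest rise among those plotted, and 7 of the 9 called signalling genes lie left of 0.

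The genes most like each called gene over the 8 libraries were found by the Pearson correlation of log2(normalized count + 1) among 10934 genes with a mean of at least 100. For F3 they were FH (0.998), FOSL2 (0.996) and ELF4 (0.994). For F2R they were ZBED1 (0.996) and ZSWIM4 (0.995), and for PLAT they were MT2A (0.996), MON1A (0.989) and DCAF5 (0.988). These values describe 8 libraries that form 2 separated groups, so the difference between the groups is part of each correlation.

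The other called genes had neighbours of the same kind. Those of SERPINE2 were AVPI1 (0.991), MERTK (0.990) and UBE2D1 (0.990), and those of TFPI were KBTBD4 (0.989), NOL4L (0.982) and ESD (0.982). F2RL1 was nearest to SMYD2 (0.991), MAGOH (0.984) and HOXD10 (0.971). TFPI2 was nearest to PFKFB3 (0.983), PID1 (0.977) and DIP2A (0.971), of which PID1 and DIP2A were not called. The size of a change can differ widely between such neighbours, since FH had a log2 fold change of -0.31 beside that of -1.68 for F3.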

How the data were processed

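Per the labels and the study's methods, RNA from 4 control and 4 OGTi cultures was made into stranded, poly(A)-enriched libraries from independent experiments. The submitters' processing notes name Bowtie2 2.3.5.1, RSEM 1.3.1, DESeq2 1.36.0 and hg38. The authors deposited expected counts per gene, in which RSEM shares ambiguous reads between genes, unscaled for depth. Their DESeq2 comparison table (fold changes, test statistics and p-values) was not used.

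Expected counts were rounded, genes with a total under 10 were left out, and DESeq2 1.42.0 in R 4.3.3 fitted treatment and replicate number over all 8 libraries, with median-of-ratios size factors and unshrunken fold changes. Normalized counts are counts divided by size factors, given as mean ± SD. Intervals of 95% come from the model. Within-library log2 ratios used counts plus 1 and an exact permutation test of 4 against 4 libraries. Pair ratios added 0.5. Positions and lengths came from GENCODE 44 by symbol (15800 of 16796 genes, 97.4% of counts). Fitting was tested on simulated data.

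The replicate block follows the study's methods. Deviations from the group means correlated between same-numbered libraries at 0.374, 0.392, 0.166 and 0.329 across 10935 genes, and control replicate 3 was closer to OGTi replicate 4 (0.345).

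The 9 genes and the partner lists were chosen with earlier results of these data known. Named besides the 9 were, per list, at most the 6 called genes of largest absolute change with a mean of at least 100, and for each called gene its 3 most alike, apart from items not reported here. Alternatives were edgeR 4.0.16, fits with no replicate block, other scaling and count filters, and leaving out each replicate.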

Additional observations from a re-analysis of the deposited data

Results flagged for a closer look

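In 64 groups of 4 libraries, the gap of the most extreme library to its neighbour was compared with the whole range of the group, and 4 groups had a gap above Dixon's 95% critical value. Chance gives about 1 in 20, or 3.2 of 64. OGTi replicate 1 had 2562 normalized counts of F3, against 4176 to 4475 in the other OGTi libraries. The same library had 1392 normalized counts of TFPI2 (565.3 to 668.0 in the others) and 935.8 of ARRB1 (638.4 to 667.1 in the others). OGTi replicate 2 had 3160 normalized counts of GGCX, against 2745 to 2812 in the others. These libraries stood away from the controls for F3 and TFPI2 and toward the controls for ARRB1 and GGCX.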

How the results depend on the processing

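DESeq2 called 7 of the 9 genes, and the count ranged from 6 to 9 over the alternatives. No direction reversed. Of 108 values of the 9 genes under alternatives, 101 kept their side of the threshold, 1 lost its call (TFPI2 without replicate 2) and 6 gained one (PLAU or PLAUR). Of 198 values of named partner genes, 11 lost their call. Among the 9 genes and the 18 named partners, leaving the replicate block out of DESeq2 changed only the calls of PLAUR and VKORC1, and with no replicate block 6307 genes were called in all. Scaling by total counts gave 4043 higher and 2563 lower calls, against 3181 and 3360.

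The count of called coagulation genes, 8, was 5 in edgeR with no replicate block, and 4 to 7 when a replicate was left out. Without a replicate, the other counts ranged from 5127 to 5690 for all genes, 6 to 8 for the 9 genes, 9 to 11 for plasminogen partners and 6 to 10 for signalling genes. The cause was not tested, beyond the smaller number of samples.

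With the replicate block as a sign-flip test over pairs, the ratio differences (-0.98 for F3 over TFPI, -0.96 for PLAU over SERPINE2, -1.46 for PLAU over PLAT, 0.82 for PLAUR over PLAU and -0.71 for F2R over F2RL1) had an exact p of 0.125, the smallest that 4 pairs allow. Without a replicate they were -1.16 to -0.87, -1.13 to -0.83, -1.61 to -1.38, 0.69 to 1.01 and -0.80 to -0.61.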
